A study of Mus musculus with 2 samples.

Results

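Broad p53 peaks of low score were 381 of the 7893 peaks (4.83%) that the authors called in p53 chromatin from mouse kidney. They were chosen by 2 values of the deposited peak list, a score below 200 and a width of 1500 bp or more. They are called broad low-score peaks here. The other 6503 peaks with a score below 200 were narrower than 1500 bp and are called narrow low-score peaks. A further 376 peaks were as wide but scored 200 or more, and 633 were narrow and scored 200 or more.

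The study used chromatin immunoprecipitation followed by sequencing (ChIP-seq), in which DNA fixed to a protein is recovered with an antibody and sequenced. By its labels the series holds 1 library of DNA recovered with a p53 antibody and 1 of input DNA that was not immunoprecipitated. Both are from kidneys of wild-type C57BL embryos at E15.5, an age in embryonic days. The peak list of the p53 library was analysed, and peak-level data of the input were not used here. The labels do not say how many embryos were pooled, and the whole kidney mixes cell types, so the cells behind a peak are not known. The question addressed is which regions p53 occupies in this tissue. Since there was 1 library, no value has a replicate error and none of the comparisons below is a test between replicates. Intervals of shares and medians are 95% binomial intervals, exact for the shares. Those of differences combine the intervals of both sides approximately. All cover counting of peaks only, and take no account of the links between neighbouring peaks. The file gives no read counts, so the depth is unknown.

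p53 is a transcription factor that is kept at a low level in most cells and rises after DNA damage and other stress, when it acts on genes of cell cycle arrest, DNA repair and apoptosis. It binds DNA as a tetramer at a short sequence made of 2 similar parts. In the developing kidney p53 is known to take part in the balance of self-renewal and differentiation of nephron progenitors. As general background on ChIP-seq, a protein held at a single short site tends to give a narrow peak. Wide stretches of weak enrichment can come from several nearby sites, from protein spread along open chromatin, or from local background. The file has no read profile within a peak, so these forms could not be told apart. No sequence of these regions is shown, since their coordinates are in mm9 and no genome of that build was used. For the same reason the peaks were not assigned to genes or searched for the p53 motif.

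The widths of the 381 peaks ran from 1500 to 3131 bp, with the median at 1682 bp and the quartiles at 1581 and 1871 bp. Most lay near the lower limit: 230 (60.4%) were narrower than 1750 bp, 91 (23.9%) from 1750 to 1999 bp, and 60 (15.7%) 2000 bp or wider. Together they covered 673 kb, which was 8.96% of the sequence within peaks and so more than their 4.83% share of peak number. Their scores lay between 60.6 and 199.9, with the median at 138 and the quartiles at 107 and 169. The narrow low-score peaks had a median width of 802 bp and a median score of 87.1. These values describe the choice of the peaks and are not a result.

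Within the low-score range, broad peaks were rare at the bottom and more frequent at the top. Of 2661 peaks scoring from 60 to below 80, 33 (1.24%) were 1500 bp or wider. The share was 5.22% from 100 to below 125, with 63 of 1206 peaks, and 21.5% from 175 to below 200, with 68 of 316. Of the broad low-score peaks 82 (21.5%) scored below 100, compared with 4051 (62.3%) of the narrow ones. So a comparison with narrow low-score peaks is also one between different scores, and comparisons within score bands are given below.

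**Figure D1:**
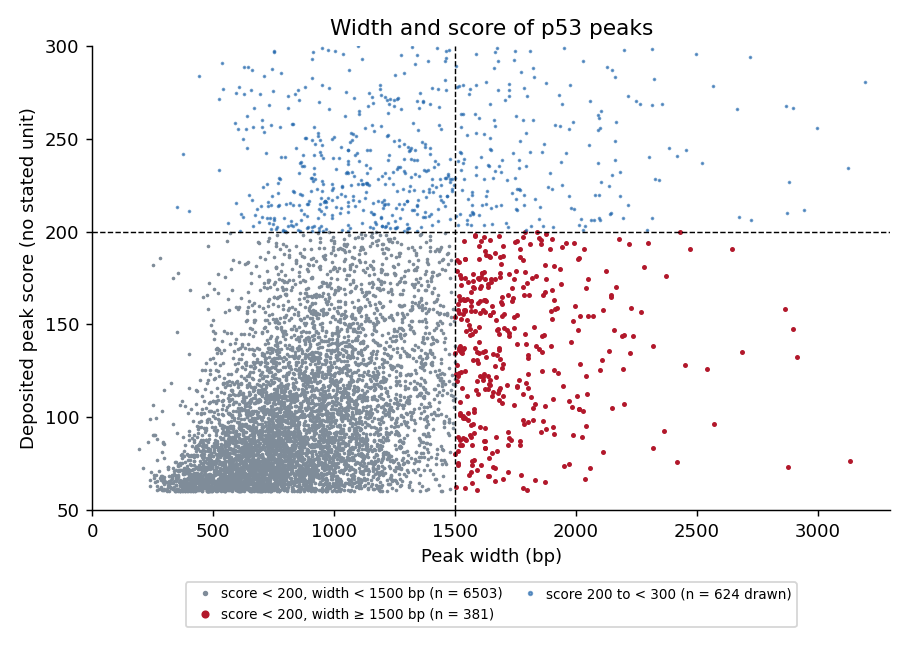
Width (bp, horizontal) against deposited score (vertical, no stated unit) for single peaks, with dashed lines at 1500 bp and at a score of 200. The 381 broad low-score peaks (red) continue the cloud of 6503 narrow ones (grey) across the line without a gap, and peaks scoring 200 to below 300 (blue) continue it upward.

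Neither limit fell at a gap in the data. There were 62 low-score peaks from 1450 to 1499 bp and 62 from 1500 to 1549 bp. The narrowest peaks inside were 1500 bp wide (chr3:51363201-51364700, chr10:41529116-41530615 and chr12:102266631-102268130) and the widest outside were 1499 bp wide (chr8:109416521-109418019, chr10:128184503-128186001 and chr11:106888809-106890307). By score, the highest inside were chr13:81921601-81923388 at 199.9 and chr1:52288838-52290674 at 199.8. The lowest of the wide peaks outside were chr16:91728365-91730391 at 200.7 and chr6:134877065-134879357 at 200.8. Of the wide peaks, 32 scored from 190 to below 200 and 32 from 200 to below 210.

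The 5 widest of these regions scored from 73.1 to 159. The widest, 3131 bp at chr10:126725577-126728707, scored 76.5, and its nearest other peak lay 21.6 kb away. The next, 2913 bp at chr9:31087159-31090071, scored 133 with the nearest other peak at 69.1 kb. A region of 2899 bp at chr10:79621038-79623936 scored 148 and had 36 other peaks within 500 kb. One of 2877 bp at chr7:134887747-134890623 scored 73.1 with 20 other peaks within 500 kb. The fifth, 2865 bp at chr11:69733032-69735896, scored 159 with 32. Surroundings therefore varied widely even among the widest, from 6 to 36 other peaks within 500 kb.

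The 5 highest-scoring of the 381 had from 1 to 10 other peaks within 500 kb. The peak at chr13:81921601-81923388 (199.9) had 2 other peaks within 500 kb, that at chr1:52288838-52290674 (199.8) had 3, and that at chr14:99444270-99446698 (199.7, 2429 bp) had 3. The next were chr4:82151543-82153417 (198.5) with 1 and chr4:43454641-43456221 (198.2) with 10. The lowest score of the 381, 60.6, was shared by 2 peaks on chromosome 2. One, chr2:37213803-37215391 (1589 bp), had 5 other peaks within 500 kb, and the other, chr2:30296163-30297961 (1799 bp), had 21.

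Broad low-score peaks lay on all 19 autosomes and the X chromosome, unevenly. Chromosome 11 held the most, 42 or 11.02% (95% interval 8.06 to 14.6), where it held 8.38% of the narrow low-score peaks. Chromosome 3 followed with 29 (7.61%, interval 5.16 to 10.7) compared with 4.67% of the narrow ones. Chromosomes 4, 6 and 7 held 26 each and chromosome 10 held 25. At the other end were 5 on chromosome 16 and 1 on the X chromosome. Per 100 Mb of the span between first and last peak, chromosome 11 held 35.4, chromosome 19 held 29.5 and chromosome 1 held 9.35. Chromosome 16 held 5.29 and the X chromosome 0.628.

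Set against the low-score peaks of the same chromosome, the spread narrowed. Over the genome 5.53% of the 6884 low-score peaks were broad (interval 5.01 to 6.10). On the autosomes the share ran from 2.19% on chromosome 16 (5 of 228, interval 0.716 to 5.04) to 8.71% on chromosome 3 (29 of 333, interval 5.91 to 12.3). Chromosome 11, with the largest number, had 7.16% (42 of 587, interval 5.21 to 9.55), an interval that holds the overall value. Chromosome 7 had 5.06% and chromosome 17 had 4.49%. On the X chromosome 1 of 118 low-score peaks was broad (0.847%, interval 0.0214 to 4.63). The intervals of chromosomes 3, 16 and X left out the overall share, 3 of 20 chromosomes. At the 95% level about 1 in 20 such intervals misses its value through counting alone, and no test over chromosomes was made. X peaks of low score were narrower in general, with a median of 606 bp among those below 1500 bp, where the autosomal medians ran from 768 to 842 bp.

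**Figure D2:**
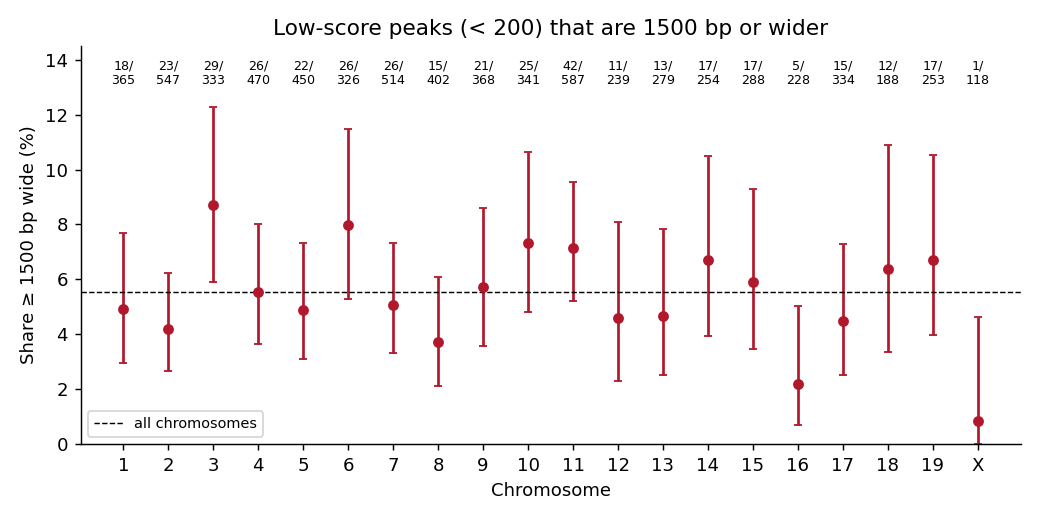
Share of low-score peaks (score below 200) that were 1500 bp or wider on each chromosome (percent, vertical). Points are the shares, bars the exact 95% binomial intervals, printed fractions the counts, and the dashed line the share over all chromosomes. Chromosome 3 (8.71%) lies above the line with its interval, and chromosomes 16 (2.19%) and X (0.847%) lie below it.

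The widest broad low-score peak of each chromosome showed how far this width range reached. It was over 2500 bp on chromosomes 5, 6, 7, 9, 10 and 11. On chromosome 5 it was chr5:138226670-138229357 (2688 bp, score 135) and on chromosome 6 chr6:38500413-38502983 (2571 bp, score 96.4). It lay from 2000 to 2500 bp on most of the others, for example chr3:95621829-95624148 (2320 bp, score 138) and chr19:12084836-12087253 (2418 bp, score 75.8). It was narrowest on chromosome 16 (chr16:4879405-4881250, 1846 bp), chromosome 8 (chr8:48759961-48761815, 1855 bp) and chromosome 13 (chr13:23788854-23790755, 1902 bp). The single X peak, chrX:71211385-71213425, was 2041 bp wide with a score of 170. Its nearest other peak was 251 kb away, and it had 6 within 500 kb.

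Along the chromosomes the broad low-score peaks were spread much as the narrow ones. When each span from first to last peak was divided into 3 equal parts, the proximal part held 29.9% of them, the middle 32.3% and the distal 37.8%. The narrow low-score peaks had 29.2, 29.7 and 41.2%.

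Broad low-score peaks lay somewhat closer to another peak of any kind than narrow ones, by a difference that counting error could cover. The median distance between midpoints was 37.1 kb (interval 32.7 to 45.0), compared with 44.97 kb (43.3 to 47.0) for narrow low-score peaks. The difference was -7.86 kb, with an interval from -12.7 to 0.243 kb. The quartiles were 11.5 and 82.6 kb for the broad and 14.8 and 114.5 kb for the narrow. The median was shorter for the broad peaks on 15 of the 19 autosomes. Chromosomes 1, 3, 4 and 17 went the other way, with 159 kb against 77.4 kb on chromosome 1. Without chromosome 11 the medians were 42.8 and 47.0 kb and the difference fell to -4.19 kb, more than 1.5 times smaller. Over all chromosomes, wide peaks of higher score had a median distance of 29.35 kb (interval 22.9 to 36.3), shorter than that of the broad low-score peaks. Narrow peaks of higher score had 38.6 kb (33.3 to 43.85), close to the broad low-score peaks. Both intervals overlap that of the broad low-score peaks. So a shorter distance than that of narrow low-score peaks was not particular to the broad low-score peaks.

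Another peak stood within 10 kb of 88 of the 381, or 23.1% (interval 19.0 to 27.7), compared with 1242 of 6503 or 19.1% (18.2 to 20.1) for the narrow peaks. The difference of 3.998 percentage points had an interval from -0.255 to 8.66. It was positive on 12 autosomes and negative on 7, among them chromosome 19 (5.88% of 17 broad and 22.5% of 236 narrow peaks). Single autosomes held only 5 to 42 broad low-score peaks, and their shares within 10 kb have no interval. Over all chromosomes, wide peaks of higher score had a larger share within 10 kb than the broad low-score peaks, 27.1% (interval 22.7 to 31.9). Narrow peaks of higher score had 20.5% (17.45 to 23.9). Both intervals overlap that of the broad low-score peaks. Within 100 kb the shares of broad and narrow low-score peaks were 77.95% (73.5 to 82.0) and 71.7% (70.6 to 72.8), a difference of 6.22 points (1.58 to 10.4). Wide peaks of higher score were close to the broad low-score peaks at this distance, with 76.3% (71.7 to 80.5). Narrow peaks of higher score had 73.9%. This larger distance was added after the planned measures had been computed. Very close neighbours were no more frequent: 21 broad peaks (5.51%) and 515 narrow ones (7.92%) had another midpoint within 2 kb. A wide peak leaves less room for another midpoint close by. Measured from edge to edge, 28 (7.35%) broad and 505 (7.77%) narrow low-score peaks had another within 1 kb.

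**Figure D3:**
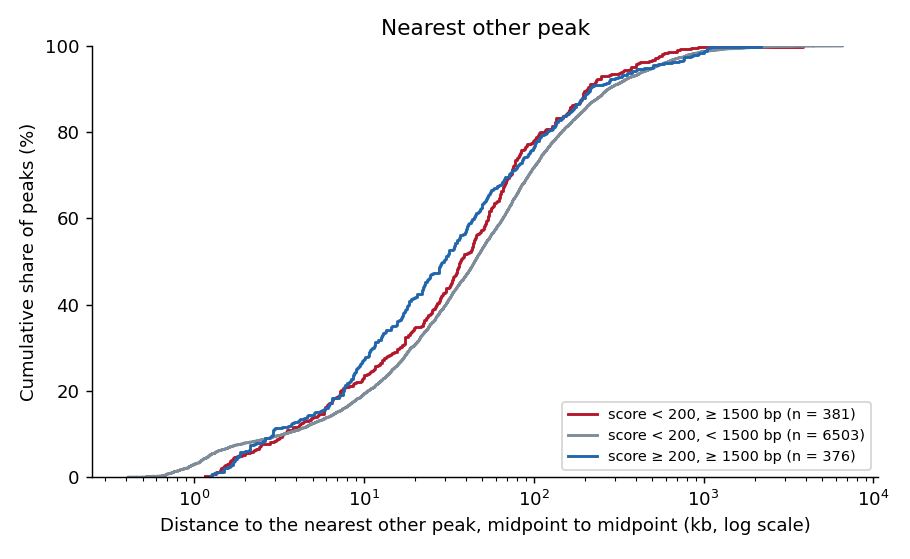
Cumulative share of peaks (percent, vertical) against the distance to the nearest other peak, midpoint to midpoint (kb, log scale), in 1 line per class. From about 10 to 100 kb the line of the 381 broad low-score peaks (red) runs above that of the 6503 narrow ones (grey), and wide peaks of score 200 or more (blue) lie above both from about 10 to 50 kb.

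The 28 broad low-score peaks with another peak within 1 kb were each the only one of their kind in the joined stretch. These 28 stretches held 2 or 3 peaks each and had a median length of 3164.5 bp, and 6 of them included a peak of score 200 or more. The longest was chr8:87184255-87188473, with 3 peaks over 4219 bp. The shortest distances between midpoints were 1.16 kb at chr10:79446957-79448650, 1.26 kb at chr10:43197558-43199160 and 1.28 kb at chr12:77470004-77471874. In each of these the neighbour was a narrow low-score peak, and the gaps were 12, 126 and 10 bp. These 3, and the stretch on chromosome 8, were chosen after their values were seen.

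The nearest neighbour of a broad low-score peak was usually an ordinary narrow one. It was a narrow low-score peak in 307 of 381 cases (80.6%), another broad low-score peak in 23 (6.04%) and a peak of score 200 or more in 51 (13.4%). For narrow low-score peaks these shares were 82.3, 4.86 and 12.9%, each within the interval of the broad peaks. The neighbours of the broad peaks had a median width of 926 bp (880 to 968) and those of the narrow peaks 875 bp (863 to 887), intervals that overlap. Their median scores were 97.7 and 96.6. Among neighbours within 10 kb, 10 of 88 (11.4%, interval 5.59 to 19.9) were wide peaks of score 200 or more, compared with 68 of 1242 (5.48%, interval 4.28 to 6.89) beside narrow peaks. The median distance to the nearest peak of score 200 or more was 377 kb (313 to 430) for the broad and 418 kb (394 to 442) for the narrow. No such peak lay within 1 Mb of 108 broad peaks (28.3%) and 2038 narrow ones (31.3%).

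Peak density was higher around broad low-score peaks than around narrow ones at each distance measured up to 2 Mb. From 5 to 10 kb away there were 16.3 other peaks per Mb around the broad peaks (62 in all) and 9.50 around the narrow ones, a ratio of 1.71. From 10 to 25 kb the values were 13.6 and 10.1 per Mb. From 25 kb to 1 Mb the ratio stayed between 1.18 and 1.22 in each of the 5 rings, and from 1 to 2 Mb it was 1.10. Within 5 kb it was 1.08. Wide peaks of score 200 or more had 21.0 other peaks per Mb at 5 to 10 kb and 8.11 at 250 to 500 kb, where the broad low-score peaks had 8.43. Nearby peaks are counted around several members, so these ratios have no interval. The rings were not recomputed within score bands or without chromosome 11. At scores from 150 to below 175 the mean number of other peaks within 500 kb was 8.925 around broad and 9.022 around narrow peaks. In each of the other score bands the mean was higher around the broad peaks.

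**Figure D4:**
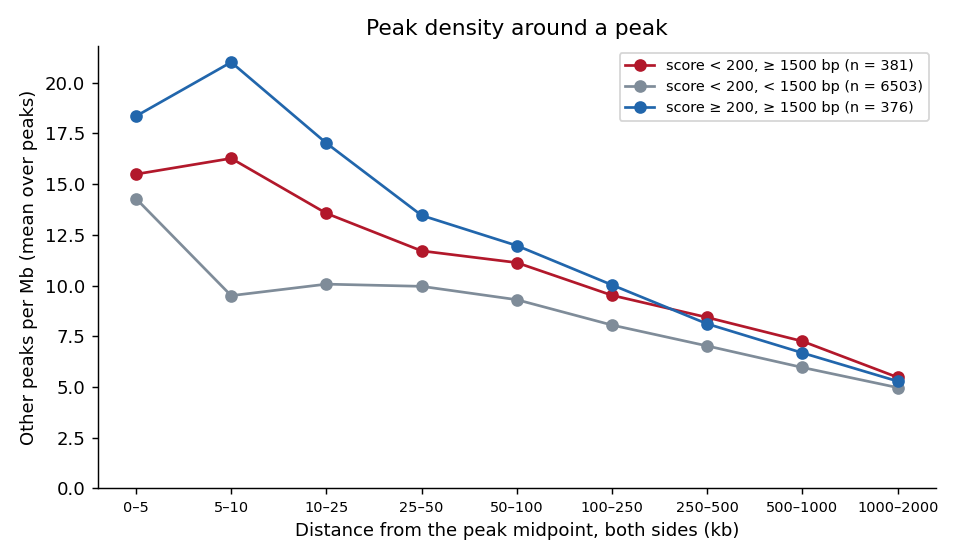
Mean number of other peaks per Mb (vertical) in rings of growing distance from the peak midpoint, both sides pooled (kb, horizontal). Broad low-score peaks (red) lie above narrow ones (grey) in every ring, most at 5 to 10 kb (16.3 against 9.50 per Mb), and wide peaks of score 200 or more (blue) are highest up to 250 kb.

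The median number of other peaks within 500 kb was 7 (interval 6 to 8) around broad low-score peaks and 6 (6 to 6) around narrow ones, and 7.5 around wide peaks of higher score. The means were 9.49, 7.90 and 9.84. Of the 19 autosomes, the median was higher for the broad peaks on 8, equal on 7 and lower on 4. The largest gap was on chromosome 19, with medians of 18 and 9, and on chromosome 11 they were 14 and 10. Without chromosome 11 both medians were 6.

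The quartiles of the number of other peaks within 500 kb were 4 and 13 for the broad and 3 and 11 for the narrow low-score peaks. Of the broad low-score peaks 51 (13.4%, interval 10.1 to 17.2) had 20 or more other peaks within 500 kb, compared with 471 (7.24%, 6.62 to 7.90) of the narrow ones. Wide peaks of higher score had nearly the same share as the broad low-score peaks, 12.8% (interval 9.6 to 16.6). Narrow peaks of higher score had 9.95%. So this crowding was not particular to the broad low-score peaks. This limit of 20 was also added after the planned measures. Chromosome 11 held 18 of the 51, and chromosomes 10 and 19 held 7 each. Those on chromosome 10 all lay within chr10:79446957-80829500 and those on chromosome 19 within chr19:5424310-6141815. Peaks at the same place share neighbours, which the intervals take no account of. Peaks with 20 or more others were 42.9% of the broad and 18.7% of the narrow low-score peaks of chromosome 11. They were 41.2 and 11.9% on chromosome 19, and 28.0 and 21.8% on chromosome 10. On chromosomes 3, 4, 7, 15 and 17 the broad peaks had the lower share. Without chromosome 11 the genome-wide shares were 9.73 and 6.19%, and the difference fell from 6.14 to 3.54 percentage points.

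Some of the 381 stood close to others of their kind, in dense surroundings or not. The most crowded were chr11:69484529-69486641 (2113 bp, score 158) with 38 other peaks within 500 kb, chr11:69693935-69695920 (1986 bp, score 90.2) with 37, and chr10:79603974-79605697 (1724 bp, score 177) with 36. Linking broad low-score peaks up to 200 kb apart gave 298 that stood alone, 28 pairs and 7 stretches of 3 or more. No other class was linked in this way, so these counts have no reference. The 7 stretches held 27 of the 381 and were chosen after their values were seen. The largest held 5 broad low-score peaks among 15 peaks over 423 kb on chromosome 19 (chr19:5424310-5847327). The tightest held 4 among 6 peaks over 26.2 kb on chromosome 6 (chr6:52170833-52196990), with scores from 114 to 194. Chromosome 10 had 4 over 177 kb (chr10:79446957-79623936). Chromosome 11 had 4 over 89.0 kb (chr11:68850196-68939198) and 4 over 117 kb (chr11:69693935-69811307). The others, with 3 each, were chr7:106500101-106632682 and chr18:34918081-35279348. Members of the stretches on chromosomes 6, 7 and 18 had from 7 to 13 other peaks within 500 kb, and those of the other 4 had 23 or more.

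Close pairs of broad low-score peaks were few in number, and no other class was counted for comparison. Midpoints lay within 5 kb of each other in 2 pairs. In the first, chr11:68850196-68851746 (score 111) and chr11:68853273-68855721 (score 128) were separated by 1526 bp. In the second, chr6:52170833-52172743 (score 163) and chr6:52175271-52177227 (score 194) were separated by 2527 bp. Within 50 kb 29 of the 381 (7.61%) had another of their kind, and the median distance to the nearest was 887 kb.

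At the other extreme, 12 of the 381 (3.15%, interval 1.64 to 5.44) had no other peak within 500 kb, compared with 333 (5.12%, 4.598 to 5.69) of the narrow low-score peaks. The most remote was chr1:113760482-113761992, 1511 bp wide with a score of 122, whose nearest other peak was 3822 kb away. Next were chr12:28027179-28028735 (1557 bp, score 149) at 928 kb and chr14:75346381-75348098 (1718 bp, score 85.2) at 839 kb. The 2 intervals overlap.

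Distance to another peak fell with width among the narrow low-score peaks, and the broad ones did not continue this evenly. Between the bands below 500 bp and from 1250 to 1499 bp the median score also rose, from 68.05 to 121.4. X peaks were 37 of 683 in the first and 1 of 550 in the second. Chromosome 11 held 7.32% and 12%. The fall in distance was not adjusted for score or chromosome. The median distance to another peak was 67.2 kb below 500 bp, 47.1 kb from 500 to 749 bp, 40.9 kb from 1000 to 1249 bp and 36.3 kb from 1250 to 1499 bp. Among the broad peaks it was 44.5 kb (interval 35.8 to 54.8) from 1500 to 1749 bp, 25.5 kb (16.4 to 43.1) from 1750 to 1999 bp and 31.1 kb (16.7 to 53.9) at 2000 bp or more. The 230 broad peaks below 1750 bp thus stood above the next narrower band, whose interval of 32 to 43.1 kb overlaps theirs. Their value was close to that of all narrow low-score peaks, 44.97 kb. Another peak lay within 10 kb of 19.1% of them (14.3 to 24.8), again close to the 19.1% of the narrow peaks. The 151 of 1750 bp or more had a median distance of 28.1 kb (19.6 to 38.6), and 29.1% (22.0 to 37.1) had another peak within 10 kb. Of these 151, 29 (19.2%, interval 13.3 to 26.4) had 20 or more others within 500 kb, compared with 22 of 230 (9.57%, interval 6.09 to 14.1). Median scores were alike at 141 and 137, but chromosomes were not. Chromosome 11 held 7.83% of the peaks from 1500 to 1749 bp, 13.2% of those from 1750 to 1999 bp and 20% of those of 2000 bp or more. This difference was not adjusted for. The line at 1750 bp was drawn after the data had been seen.

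**Figure D5:**
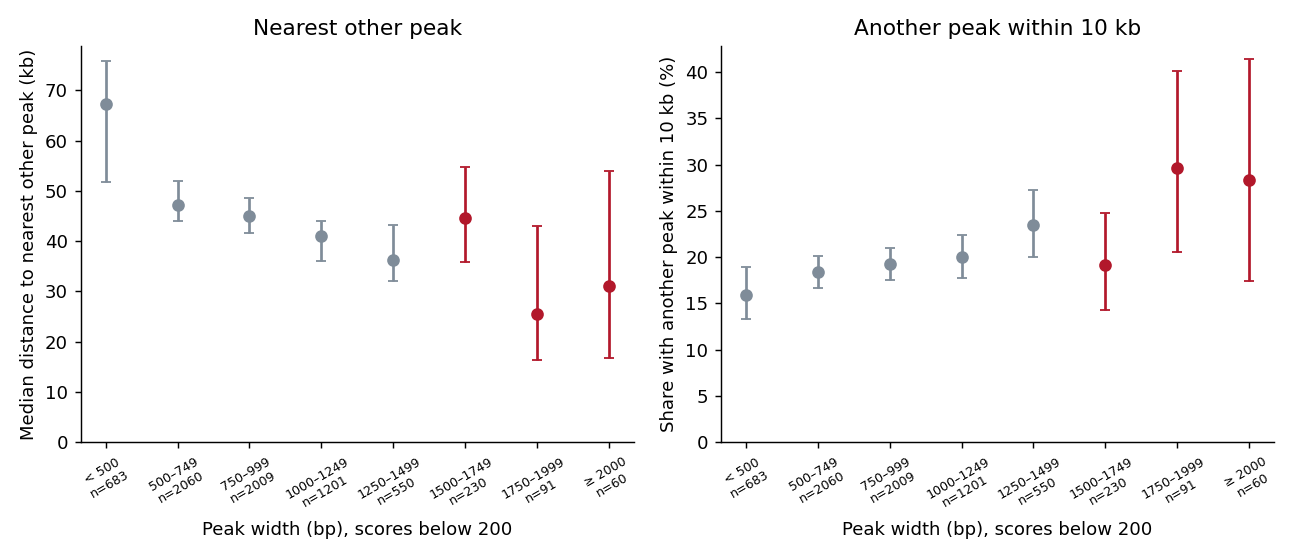
Median distance to the nearest other peak (kb, left) and share with another peak within 10 kb (percent, right) for low-score peaks in bands of width (bp), with 95% intervals and the number of peaks under each band. The 3 broad bands are red. The band from 1500 to 1749 bp (44.5 kb, 19.1%) lies near the narrower bands, and the 2 widest bands (25.5 and 31.1 kb, 29.7 and 28.3%) lie beyond them with wide intervals.

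The difference in median distance was not of the same sign in all score bands, though the intervals of the 2 classes overlapped in each fine band. With both classes limited to scores from 100 to below 200, the medians were 35.5 kb for 299 broad and 42.9 kb for 2452 narrow peaks, and the shares within 10 kb were 25.8 and 19.1%. From 150 to below 200 they were 35.8 and 43.2 kb, and 24.8 and 18.5%. Split more finely, the broad peaks were closer to another peak in the 3 bands from 125 up, with medians of 33.6 and 42.6 kb from 125 to below 150. Their medians were larger in the 3 bands below, with 50.95 kb (24.8 to 74.5) and 48.8 kb (43.96 to 53.5) from 80 to below 100. From 100 to below 125 they were 46.1 kb (19.8 to 63.3) and 42.9 kb (38.9 to 47.9). The shares within 10 kb were 18.4 and 19.5% from 80 to below 100, and 27.0 and 18.5% from 100 to below 125. With all scores below 150 in both classes the difference in median distance was -2.20 kb, where it was -7.86 kb below 200, and the difference in the share within 10 kb was 2.66 percentage points. From 150 to below 200, however, the median number of other peaks within 500 kb was lower for the broad peaks, 6 against 7, and the shares with 20 or more were 11.8 and 9.50%. At the lowest scores the broad peaks were not closer to others: of the 33 scoring from 60 to below 80, 2 (6.06%, interval 0.743 to 20.2) had another within 10 kb, compared with 18.9% of 2628 narrow ones. Their median distance was 46.0 kb, and that of the narrow peaks 45.5 kb.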

How the data were processed

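The peak list of the p53 library was used. Per the file headers it came from MACS, a peak caller, and per the submitters' processing notes the build was mm9. The aligner, the MACS version and settings and the role of the input were not given in the sources used here. Each score is a value the authors deposited, 1 per peak. The usual MACS score is -10 log10 of a p-value, but the header names no scale. Scores ran from 60.01 to 3100 and were used to choose and describe peaks within this list. No read counts are given, so depth is unknown. Starts are printed 1-based.

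Computed here, with scipy 1.17.1, pandas 2.3.3, numpy 2.4.6 and Python 3.11.15, were chromosome shares, distances between midpoints and numbers of other peaks around each peak. Shares have Clopper-Pearson intervals, medians have binomial order-statistic intervals, and differences combine both intervals by square-and-add, all at 95%. Distance and density calculations were checked on simulated peaks. No replicate test is possible with 1 library, and none over peaks was made.

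The peaks, limits and measures were chosen with earlier results of these data known. Named peaks followed a rule: the 5 widest, the 5 highest-scoring, the lowest-scoring, the widest per chromosome (several given as examples), the 3 most crowded, the 3 most remote, pairs within 5 kb, and those at the limits. Alternatives varied the width and score limits, distances, windows, joining of peaks and chromosomes kept. A planned description of sequence and promoter overlap was not run without an mm9 genome.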

Additional observations from a re-analysis of the deposited data

How the results depend on the processing

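Raising the width limit to 2000 bp left 60 peaks. Their median distance to another peak was 31.1 kb (-13.7 kb against the narrower ones), and 28.3% had another within 10 kb (9.09 points more). On the X chromosome lay 1 of the 60 (1.67%), the same peak as in the main set, and on chromosome 11 lay 12 (20%). With 20 or more others within 500 kb the share was 18.3% (10.8 points more). A limit of 1200 bp gave 1096 peaks, with differences of -9.78 kb in distance and 5.02 points within 10 kb. A score limit of 150 gave 220 peaks, with differences of -2.20 kb and 2.66 points. Of these 220, 0 lay on the X chromosome. An approximate upper limit of the share, taken as 3 of 220 and not as a Clopper-Pearson limit, was 1.36%. These changes in number follow from the limits. Joining peaks up to 1 kb apart lowered the share within 10 kb to 17.85% (narrow 12.8%). The shares were 13.65% within 5 kb and 57.2% within 50 kb (narrow 12.4 and 52.96%). The median number of other peaks was 2 within 100 kb, 12 within 1 Mb, 21 within 2 Mb and, counting those of score 100 or more within 500 kb, 4 (narrow 1, 11, 19 and 3). With both classes at scores from 150 to below 200 the difference in this median was -1, the cause of which was not tested. Leaving out each of the 20 chromosomes in turn, added after seeing the data for 18 of them, gave differences from -9.11 to -4.19 kb in distance, 2.89 to 4.93 points within 10 kb, and 0 to 1 in the median number. Weighting the narrow peaks to the chromosomes or to the scores of the broad ones, also added later, gave -7.55 and -6.84 kb. No paired analysis was possible because there is 1 p53 library. Without read counts, whether deeper sequencing would widen, split or add low-score peaks cannot be judged.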
